A study of Homo sapiens with 6 samples.

Results

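Autophagy, the mTOR complexes and the AMPK kinase were examined as 1 set of 51 genes in senescent human fibroblasts, with and without depletion of the long noncoding RNA sin-lncRNA. The genes were taken by symbol from the 57819 genes of the deposited table, and all 51 were found. They comprised 36 autophagy genes (kinases, lipid factors, conjugation enzymes, ATG8 proteins and cargo receptors) and 15 genes of the mTOR and AMPK pathways. In the knockdown, 16 of the 50 members that could be tested changed (32.0%), 7 upward and 9 downward, beside 41.0% of all genes tested (17.5% higher, 23.5% lower). DRAM1, GABARAPL1, TSC1 and RICTOR were among the genes that rose, and MLST8, WIPI1, SQSTM1, ATG3 and ATG7 among those that fell.

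Autophagy encloses cytoplasm in a double membrane, the autophagosome, and delivers it to lysosomes for breakdown. The ULK kinase starts the process, a lipid kinase marks the forming membrane, and 2 linked conjugation reactions attach ATG8 proteins to it, which in turn hold cargo receptors. The kinase complex mTORC1 holds ULK inactive when nutrients are plentiful, whereas AMPK, activated by LKB1 when energy is low, opposes mTORC1. Ras-induced senescence of fibroblasts is known to engage autophagy together with mTOR signalling.

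RNA came from IMR90 ER:Ras cells, human lung fibroblasts that carry a Ras fusion to an estrogen receptor domain responsive to 4-hydroxytamoxifen (4OHT). Both groups received 200 nM 4OHT for 3 days, so every library carries active Ras, and they differed in the siRNA: scrambled (siSCR, control) or sin-lncRNA KD (knockdown), with 3 libraries each. Cells without 4OHT were not analysed here. A single cell line was used, nothing in the labels says whether replicates were separate cultures, and p-values therefore measure the spread between these libraries, which may be technical.

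Reads in genes numbered 30271192 to 50913672 in controls and 22117324 to 27882280 in knockdowns, so all 3 knockdown libraries were shallower than the controls, and depth and group cannot be told apart. The target sin-lncRNA, listed under the gene ID ENSG00000234693.1, was at 3.70, 4.73 and 4.09 reads per 1000000 (RPM) in controls and at 0.493, 0.640 and 0.534 in knockdowns, or 13.3% of control. Of 10 fibroblast markers, all were tested, 4 rose and 5 fell, and their summed level was 15320 to 16500 RPM in controls against 10850 to 11280 in knockdowns. Of 6 epithelial markers 3 were tested, with KRT18 higher and KRT8 lower, and the list summed to 24.3 to 25.9 RPM in controls and 26.9 to 29.6 in knockdowns; KRT5 had no read in any library. Of 3 endothelial markers VWF alone was tested, on 49 to 90 reads per library, and was higher, and the sums were 1.70 to 1.90 and 2.29 to 2.71 RPM. None of 5 leukocyte markers could be tested, with sums of 0.0999 to 0.219 and 0.179 to 0.356 RPM. The part of these markers in the results below was not tested, and in bulk RNA fewer cells of a type cannot be told apart from less RNA per cell.

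Values are given as RPM in replicates 1, 2 and 3. Changes are log2 fold changes of the deposited log2 values, knockdown minus control, with the standard error (SE) and a Benjamini-Hochberg adjusted p from limma over all 19048 genes with a mean of at least 10 normalized reads. A gene was called changed at an adjusted p under 0.05. RRAGD alone among the members fell below that mean.

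The share of members called was below that of all genes tested in the fit as reported and in 18 of 20 other fits. It was above that share in the other 2: without a filter on low reads (31.4% of members and 21.6% of all genes) and with the trend over GC content and transcript length removed (46.0% and 44.0%). In the fit as reported members were displaced by smaller amounts: their median absolute log2 fold change was 0.10, against 0.23 for all genes tested. Among the 12288 genes with at least the mean read number of the least abundant tested member, 51.7% were called and the median absolute change was 0.20. The median signed change of the members was -0.01, beside -0.04 for all genes tested, and only 3 members (DRAM1, MLST8 and WIPI1) exceeded 0.5 in size. Groups did not overlap in 22 of 50 members (44.0%), beside 51.1% of all genes tested.

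**Figure D1:**
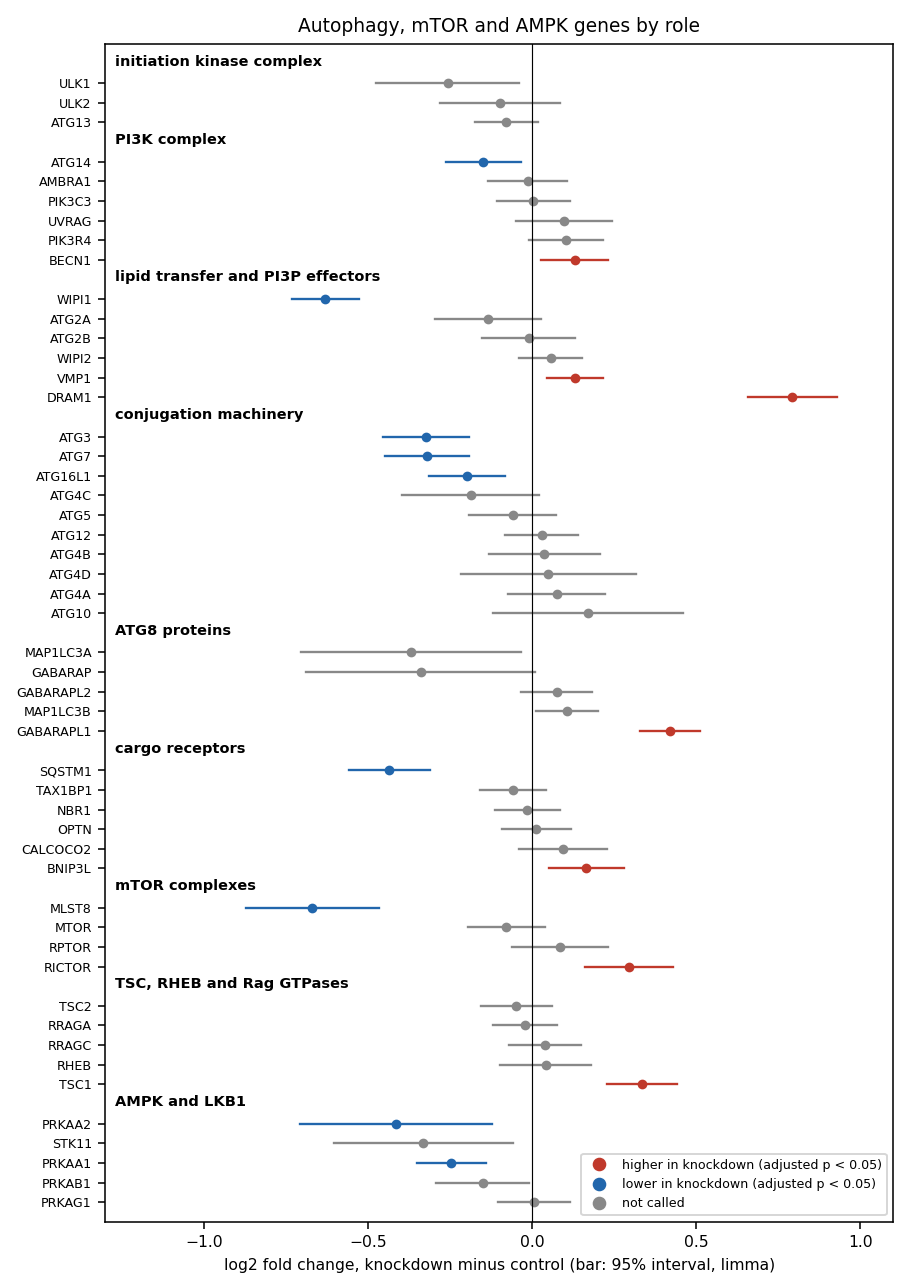
Log2 fold change of the 50 tested members, knockdown minus control, ordered within their roles. Points are limma estimates, bars their 95% intervals, red and blue the 7 genes called higher and 9 called lower, and grey those not called. DRAM1 stands alone at the right (0.79), and MLST8 (-0.67) and WIPI1 (-0.63) at the left, while most other members sit within 0.2 of 0.

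Initiation was examined first. ULK1 and ULK2 are the kinases that start autophagosome formation, and ATG13 is their regulatory partner. None of the 3 passed the threshold. Other partners of these kinases lie outside the set. Of them, RB1CC1 was called higher, from a mean of 65.98 RPM to 84.5 (log2 fold change 0.36, limma adjusted p = 0.00012). ATG101 was not called (-0.05). ULK1 was at 52.6, 38.5 and 46.8 RPM in controls and 36.2, 41.3 and 37.0 in knockdowns, so control replicate 2 lay inside the knockdown range. Its log2 fold change was -0.26 ± 0.10 (SE; limma adjusted p = 0.059). The value depended on single libraries. It was -0.38 without control replicate 2 (limma adjusted p = 0.0014) and -0.32 without knockdown replicate 2 (limma adjusted p = 0.047), but -0.15 without control replicate 1 (limma adjusted p = 0.199). With the GC and length trend removed it was -0.13 (limma adjusted p = 0.054). ULK2 was at 10.0, 9.92 and 9.99 RPM in controls and 9.95, 8.50 and 9.55 in knockdowns, with a log2 fold change of -0.10 ± 0.08 (SE). ATG13 was at 89.7 ± 2.2 and 84.9 ± 1.1 RPM (SD, n = 3), and its fold change of -0.08 (log2) had a 95% interval from -0.17 to 0.02.

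The lipid kinase complex that marks the membrane with phosphatidylinositol 3-phosphate (PI3P) showed 2 small changes in opposite directions. They were among 6 genes, and 41.0% of all genes tested were called. BECN1, the scaffold of the complex, went from 46.1, 47.4 and 46.7 RPM to 51.1, 51.1 and 51.1, a log2 fold change of 0.13 ± 0.05 (SE; limma adjusted p = 0.043). ATG14, the subunit that directs the complex to autophagosome formation, went from 31.5, 32.5 and 32.4 to 29.5, 28.6 and 28.8, a log2 fold change of -0.15 ± 0.05 (SE; limma adjusted p = 0.039). The groups did not overlap for either gene, but both calls were fragile. BECN1 lost its call when any 1 of the 6 libraries was left out (adjusted p in limma from 0.069 to 0.128; log2 fold change 0.12 to 0.14). ATG14 lost its call without control replicate 2 or 3 or any knockdown library (-0.14 to -0.16). With the replicate number as a block neither gene was called. The catalytic subunit PIK3C3 was at 36.4 ± 0.5 and 36.5 ± 0.9 RPM (SD, n = 3) and was not called, but with the GC and length trend removed it was called lower (-0.13; limma adjusted p = 0.0375). PIK3R4, UVRAG and AMBRA1 did not pass either, with log2 fold changes of 0.10, 0.10 and -0.01.

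Lipid transfer proteins, PI3P effectors and other membrane proteins were grouped next, and held the largest rise and 1 of the largest falls of the set. DRAM1, a lysosomal membrane protein known as a p53 target that promotes autophagy, was at 48.6, 42.7 and 43.1 RPM in controls and 75.1, 81.7 and 75.8 in knockdowns. DRAM1 lies on chromosome 12 (102271129 to 102405908 in hg19; ENSG00000136048.9). Each knockdown library was far above each control, and the rise of 73.0% was a log2 fold change of 0.79 ± 0.06 (SE; limma adjusted p = 3.9e-06). WIPI1, which binds PI3P on the nascent membrane, went the other way, from 90.7, 88.7 and 88.0 RPM to 60.1, 56.3 and 56.4. Its log2 fold change was -0.63 ± 0.05 (SE; limma adjusted p = 2.8e-06), and the 3 libraries of each group lay close together. WIPI1 lies on chromosome 17 (66417089 to 66453654 in hg19; ENSG00000070540.8). The paralog WIPI2, known for recruiting the conjugation machinery, was at 86.4, 83.9 and 83.7 RPM in controls and 90.5, 87.1 and 86.6 in knockdowns and was not called (0.06 ± 0.04 SE). The log2 ratio of WIPI1 to WIPI2 within a library was therefore 0.07 ± 0.01 in controls and -0.61 ± 0.02 in knockdowns (SD, n = 3). The difference of -0.69 gave p = 0.1 in the exact two-sided permutation test, the smallest p that 3 libraries against 3 allow.

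VMP1, an endoplasmic reticulum protein needed for autophagosome formation, went from 177.7, 172.3 and 175.0 RPM to 195.1, 189.8 and 189.9 (0.13 ± 0.04 SE; limma adjusted p = 0.020). This small rise lost its call without control replicate 2 (0.12) or 3 (0.13) or without knockdown replicate 1 (0.12) or 3 (0.14), and was 0.05 after a trend over GC content and transcript length had been removed. The lipid transfer proteins ATG2A and ATG2B were not called. ATG2A was at 41.0, 35.5 and 38.9 RPM in controls and 31.8, 36.5 and 36.8 in knockdowns, and ATG2B at 61.3, 68.6 and 63.6 against 69.3, 59.7 and 63.3. Both ranges overlapped between the groups, and the ratio of the pair differed by -0.12 (exact permutation p = 0.6).

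The conjugation machinery had 3 genes called lower and none called higher among 10, beside 23.5% lower among all genes tested. ATG7, the activating enzyme that feeds both conjugation reactions, went from 35.0, 38.2 and 38.2 RPM to 30.0, 28.5 and 30.6, a log2 fold change of -0.32 ± 0.06 (SE; limma adjusted p = 0.0013). ATG3, the enzyme that passes ATG8 proteins on to lipid, went from 30.7, 30.9 and 32.5 to 25.8, 25.8 and 23.7, also -0.32 ± 0.06 (SE; limma adjusted p = 0.0014). ATG16L1, which places the lipidation reaction on the membrane, went from 34.2, 35.8 and 35.8 to 31.4, 30.9 and 29.8, -0.20 ± 0.05 (SE; limma adjusted p = 0.011). In all 3 genes every knockdown library lay below every control. ATG7 and ATG3 kept their calls in all 20 alternative fits, whereas ATG16L1 lost its call without control replicate 3 (-0.19; limma adjusted p = 0.057).

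None of the other 7 conjugation genes was called. ATG5 and ATG12, which are joined to each other by ATG7 and ATG10, had log2 fold changes of -0.06 and 0.03, and ATG10 itself, on a low level of 4.61 ± 0.56 RPM in controls and 5.19 ± 0.68 in knockdowns (SD, n = 3), had 0.17 ± 0.13 (SE). The ATG4 proteases, which trim ATG8 proteins and later release them, were not called. Their log2 fold changes were 0.07 for ATG4A, 0.04 for ATG4B, -0.19 for ATG4C and 0.05 for ATG4D. Removal of the trend over GC content and length gave other values for 3 of them, 0.16 for ATG4B, -0.26 for ATG4C and 0.27 for ATG4D, each then called (limma adjusted p = 0.0088, 0.034 and 0.011).

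Promoters are shown for ATG3, ATG7 and ATG16L1, the 3 conjugation genes called lower, and for TSC1, a member called higher. All of them hold the word marked below, which conjugation genes not called (ATG4C and ATG5) hold as well. RefSeq promoters (GRCh38.p14; 250 bases before to 50 after the start) matched 44 of the 51 members, with 53 promoters. Capitals mark CCGGAAG, the core word of ETS family factors, on either strand, where it reads CTTCCGG; in ATG3 both strands overlap. The sequences are given 5′ to 3′ on the gene's strand.
ATG3, chr3:112561913-112562212, minus strand: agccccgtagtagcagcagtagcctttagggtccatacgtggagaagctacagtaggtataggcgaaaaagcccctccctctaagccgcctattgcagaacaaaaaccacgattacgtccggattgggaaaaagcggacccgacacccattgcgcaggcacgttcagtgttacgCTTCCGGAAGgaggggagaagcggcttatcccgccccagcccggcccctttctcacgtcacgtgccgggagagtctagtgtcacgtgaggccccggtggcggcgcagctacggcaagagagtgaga
ATG7, chr3:11272147-11272446, plus strand: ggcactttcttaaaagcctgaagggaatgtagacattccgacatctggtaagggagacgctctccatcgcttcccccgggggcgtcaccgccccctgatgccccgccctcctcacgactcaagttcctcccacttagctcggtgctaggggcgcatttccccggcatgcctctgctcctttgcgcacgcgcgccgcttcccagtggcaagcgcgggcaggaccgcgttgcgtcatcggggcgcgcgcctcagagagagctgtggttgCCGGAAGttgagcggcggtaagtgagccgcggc
ATG16L1, chr2:233251423-233251722, plus strand: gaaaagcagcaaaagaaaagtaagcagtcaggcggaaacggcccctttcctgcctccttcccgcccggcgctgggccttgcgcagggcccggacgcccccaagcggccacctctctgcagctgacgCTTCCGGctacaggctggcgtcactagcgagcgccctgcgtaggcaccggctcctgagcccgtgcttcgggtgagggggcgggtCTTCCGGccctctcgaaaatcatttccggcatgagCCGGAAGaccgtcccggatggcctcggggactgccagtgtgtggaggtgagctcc
TSC1, chr9:132944567-132944866, minus strand: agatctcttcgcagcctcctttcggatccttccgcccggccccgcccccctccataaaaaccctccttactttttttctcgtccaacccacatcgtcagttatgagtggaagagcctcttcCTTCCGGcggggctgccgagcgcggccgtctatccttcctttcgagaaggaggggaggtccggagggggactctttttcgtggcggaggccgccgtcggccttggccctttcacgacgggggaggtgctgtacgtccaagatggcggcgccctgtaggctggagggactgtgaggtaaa
The word occurred 2 times in ATG3, 3 times in ATG16L1 and once each in ATG7 and TSC1. It was found in 15 of 53 member promoters (28.3%), beside 10.3% of all 35116 promoters and 16.1% of the 14820 promoters of genes tested here. Of the 14 genes that held it, 4 were called lower (ATG3, ATG7, ATG16L1 and SQSTM1) and 3 higher (TSC1, BECN1 and VMP1). Among all genes tested, 23.5% were called lower and 17.5% higher. The other 7 were not called (ATG4C, ATG5, GABARAPL2, PIK3C3, PRKAB1, PRKAG1 and TSC2). Genes with the word thus lay on both sides and among those not called.

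A further 8 words were searched on both strands. The E-box CACGTG was in 4 of 53 member promoters (7.5%, beside 7.3% of all): ATG3, ATG14, RRAGC and TSC2. Its longer form TCACGTGA, the core of the element bound by the lysosomal regulator TFEB, was in those of ATG3 and TSC2 (3.8%), beside 1.0% of all promoters. The word GTAAACA of FOXO factors was in 2 (CALCOCO2 and STK11; 3.8%, beside 3.4% of all), and TGACNNNGC of the antioxidant response in 6 (11.3%, beside 13.3% of all). TGATGNAA of ATF4 was in 1 (1.9%, beside 3.6% of all), TGANTCA of AP-1 in 1 (1.9%, beside 7.7% of all), CCAAT was in 16 (30.2%, beside 34.6% of all), and the GC box GGGCGG in 37 (69.8%, beside 45.0% of all and 64.7% of tested genes). CACGTG lies within TCACGTGA, so those matches overlap. These matches describe letters in a fixed window only.

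**Figure D2:**
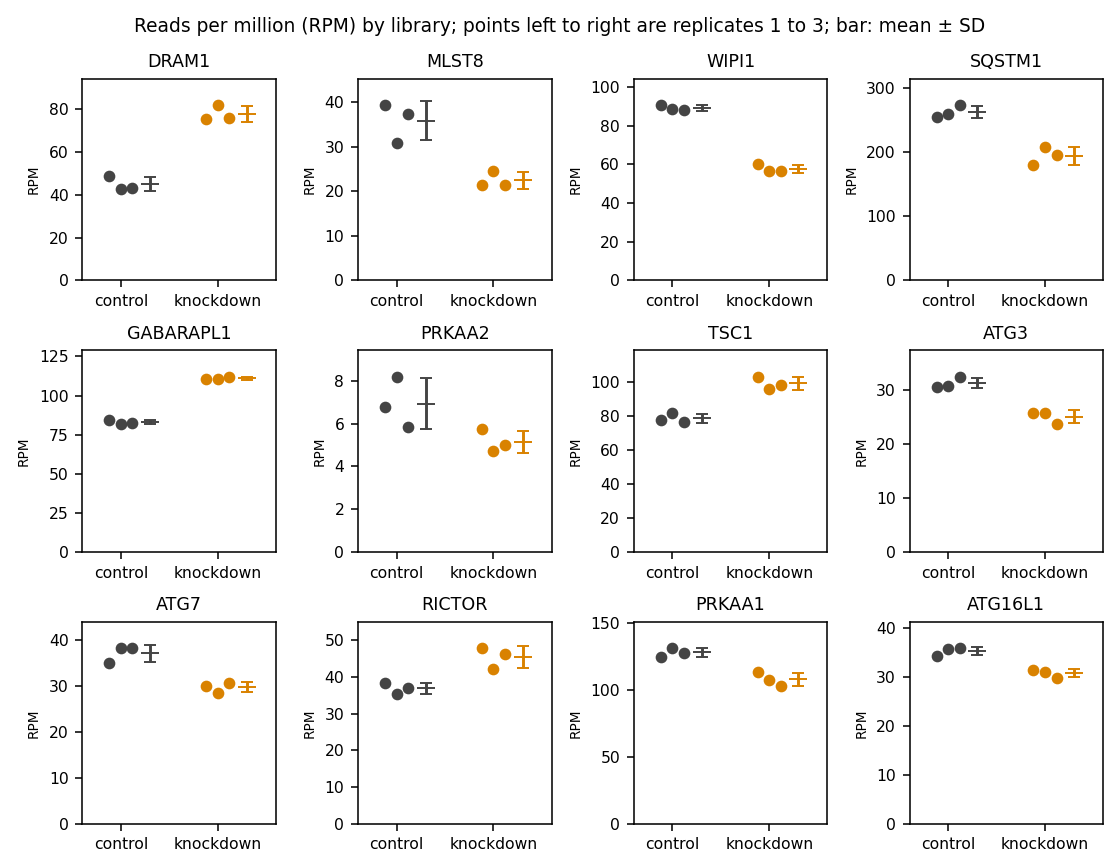
RPM of the 12 called members with the largest changes, non-overlapping groups and a mean of at least 50 normalized reads, each panel with a vertical axis from 0. Points are libraries (replicates 1 to 3 from left to right), and bars the mean ± SD. The groups stand well apart for DRAM1, WIPI1 and GABARAPL1 and only just apart for PRKAA2 (lowest control 5.82, highest knockdown 5.74 RPM).

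The ATG8 proteins, which are attached to the membrane and bind cargo receptors, did not move together. GABARAPL1 rose from 84.5, 82.1 and 82.3 RPM to 110.7, 110.3 and 112.0, a change of 33.8% with libraries of each group close together (log2 fold change 0.42 ± 0.04 SE; limma adjusted p = 2.0e-05). Its relative GABARAPL2 was at 63.1, 68.6 and 67.8 RPM in controls and 68.3, 71.1 and 70.6 in knockdowns and was not called (0.07 ± 0.05 SE). MAP1LC3B, the LC3 protein most used as a marker of autophagosomes, was at 128.3, 136.5 and 135.5 RPM in controls and 145.8, 141.9 and 142.8 in knockdowns. The groups did not overlap, but the difference of 0.11 ± 0.04 (SE) missed the threshold (limma adjusted p = 0.070). Its close copy MAP1LC3B2 averaged 879.8 normalized reads, beside 4344 for MAP1LC3B, and was not called (-0.15). How 50 bp reads were divided between these genes was not tested, so the MAP1LC3B value is uncertain.

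The other 2 ATG8 genes were measured at low levels. MAP1LC3A was at 8.08, 6.43 and 6.54 RPM in controls and 4.21, 6.28 and 5.91 in knockdowns (-0.37 ± 0.15 SE; limma adjusted p = 0.074), and its value was -0.48 without knockdown replicate 2 (limma adjusted p = 0.041), -0.19 without knockdown replicate 1 (limma adjusted p = 0.249) and -0.14 with the GC and length trend removed (limma adjusted p = 0.314). GABARAP was at 13.7, 9.59 and 13.99 RPM in controls and 7.84, 10.4 and 11.1 in knockdowns (-0.34 ± 0.16 SE; limma adjusted p = 0.111), and its value was -0.52 without control replicate 2 (limma adjusted p = 0.0062) and -0.19 without knockdown replicate 1 (limma adjusted p = 0.365). GABARAP is overlapped on its own strand by CTD-2545G14.7, a gene too low to be tested, so its level is uncertain. Per kb of the longest GENCODE 29 transcript, MAP1LC3B stood at 43.3 RPM in controls, GABARAPL2 at 29.2, GABARAPL1 at 25.8, GABARAP at 7.61 and MAP1LC3A at 4.46. In knockdowns GABARAPL1 (34.5) was above GABARAPL2 (30.8). The log2 ratio of GABARAPL1 to GABARAPL2 went from 0.32 ± 0.09 to 0.67 ± 0.03 (SD, n = 3; exact permutation p = 0.1). Ratios of MAP1LC3A to MAP1LC3B and of GABARAP to GABARAPL1 were lower in every knockdown library, by -0.48 and -0.76 (exact permutation p = 0.1 for each).

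Of the 6 cargo receptors, which tie ubiquitin-marked or organelle cargo to ATG8 proteins, 1 fell and 1 rose. Among all genes tested, 23.5% were lower and 17.5% higher. SQSTM1 (p62), a receptor that is itself degraded by autophagy, was at 254.2, 259.7 and 273.1 RPM in controls and 179.6, 208.4 and 194.7 in knockdowns. The fall of 26.0% was a log2 fold change of -0.44 ± 0.06 (SE; limma adjusted p = 0.00013). BNIP3L, a receptor for mitochondria, went from 120.6, 107.5 and 115.7 RPM to 132.1, 123.6 and 129.5, a small rise of 0.17 ± 0.05 (SE; limma adjusted p = 0.025). The BNIP3L call was lost without control replicate 2 (0.12) or 3 (0.17) or without knockdown replicate 1 (0.14) or 3 (0.16), and the value was 0.10 after removal of the GC and length trend. NBR1 (162.8 ± 4.7 and 161.3 ± 6.2 RPM), OPTN (64.8 ± 0.8 and 65.4 ± 2.6), TAX1BP1 (105.4 ± 3.4 and 101.1 ± 2.8) and CALCOCO2 (58.1 ± 4.6 and 62.0 ± 1.6; all SD, n = 3) were not called, and their log2 fold changes lay between -0.06 and 0.09.

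The kinase complexes mTORC1 and mTORC2 share the catalytic subunit MTOR and the subunit MLST8 and differ in RPTOR (mTORC1) and RICTOR (mTORC2). MLST8 was at 39.4, 30.9 and 37.3 RPM in controls and 21.4, 24.5 and 21.4 in knockdowns, the largest fall of the set. MLST8 lies on chromosome 16 (2254249 to 2259417 in hg19). It was down by 37.4%, a log2 fold change of -0.67 ± 0.09 (SE; limma adjusted p = 0.00020), and -0.46 after removal of the GC and length trend. RICTOR was at 38.4, 35.5 and 37.0 RPM in controls and 47.8, 42.1 and 46.2 in knockdowns, a rise of 22.8% (log2 fold change 0.30 ± 0.06 SE; limma adjusted p = 0.0028). After removal of that trend the RICTOR value was 0.15 (limma adjusted p = 0.043; 0.0014 to 0.043 across the other fits). RICTOR overlaps OSMR on the opposite strand, a gene with far more reads.

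MTOR itself was at 97.1, 107.0 and 98.0 RPM in controls and 99.2, 91.5 and 95.4 in knockdowns, with overlapping groups and no call (-0.08 ± 0.05 SE). RPTOR was at 59.9, 56.0 and 59.2 RPM in controls and 55.7, 63.4 and 66.8 in knockdowns (0.08 ± 0.07 SE), and its value was 0.16 without knockdown replicate 1 (limma adjusted p = 0.046) and 0.03 without knockdown replicate 3 (limma adjusted p = 0.788). The ratio of RPTOR to RICTOR was 0.66 ± 0.02 on the log2 scale in controls and 0.45 ± 0.20 in knockdowns (SD, n = 3), lower in all 3 knockdown libraries (exact permutation p = 0.1), with knockdown replicate 1 the lowest at 0.22.

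Upstream of mTORC1, TSC1 and TSC2 form the complex that switches off the GTPase RHEB, an activator of mTORC1. TSC1 rose from 77.7, 81.7 and 76.3 RPM to 103.1, 96.0 and 98.4, or by 26.2% (log2 fold change 0.34 ± 0.05 SE; limma adjusted p = 0.00028). TSC2 was at 85.8, 81.4 and 84.6 RPM in controls and 76.9, 83.9 and 82.8 in knockdowns, with overlapping groups (-0.05 ± 0.05 SE). The log2 ratio of TSC1 to TSC2 was -0.10 ± 0.09 in controls and 0.29 ± 0.12 in knockdowns (SD, n = 3; exact permutation p = 0.1), higher in every knockdown library. RHEB was at 25.4 ± 0.3 and 26.2 ± 1.8 RPM (SD, n = 3) and was not called. Its 3 pseudogenes held 62.9% as many reads as RHEB, so its value is uncertain.

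The Rag GTPases carry the amino acid signal to mTORC1 on lysosomes, RRAGA paired with RRAGC or RRAGD. RRAGA was at 148.0 ± 5.6 and 145.6 ± 2.9 RPM (SD, n = 3), and per kb it was the most abundant member in both groups (93.1 and 91.6). RRAGC was at 60.6, 62.1 and 65.4 RPM in controls and 65.2, 66.04 and 62.0 in knockdowns, with a log2 fold change of 0.04 (95% interval -0.07 to 0.15). RRAGD was at 0.323, 0.133 and 0.238 RPM in controls and 0.359, 0.341 and 0.392 in knockdowns, on 4 to 12 reads per library, too few for the fit. The RRAGC to RRAGD ratio overlapped between the groups on the offset log2 scale (exact permutation p = 0.2).

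AMPK is built of a catalytic subunit (PRKAA1 or PRKAA2) with a beta and a gamma subunit, and LKB1, encoded by STK11, activates it. Of the beta and gamma subunits only PRKAB1 and PRKAG1 are members. PRKAB2 (beta) and PRKAG2 (gamma) lie outside the set, and both were called higher (values below). Both catalytic subunits were lower. PRKAA1, the more abundant form per length of transcript (25.1 RPM per kb in controls, beside 0.742 for PRKAA2), went from 124.8, 130.9 and 127.8 RPM to 113.2, 107.0 and 103.1, a log2 fold change of -0.25 ± 0.05 (SE; limma adjusted p = 0.0018). PRKAA2 went from 6.78, 8.19 and 5.82 RPM to 5.74, 4.74 and 4.99, -0.42 ± 0.13 (SE; limma adjusted p = 0.027). The PRKAA2 call was lost without control replicate 1 (-0.42) or 2 (-0.29) or knockdown replicate 2 (-0.36) or 3 (-0.39), and with the replicate number as a block (limma adjusted p = 0.050). The ratio of the 2 forms did not separate the groups, at 4.22 ± 0.23 and 4.38 ± 0.10 on the log2 scale (SD, n = 3; exact permutation p = 0.3).

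PRKAB1 was lower in every knockdown library (21.2 ± 0.6 and 19.1 ± 1.0 RPM; SD, n = 3) without passing the threshold (-0.15 ± 0.06 SE; limma adjusted p = 0.085). PRKAG1, at 78.1 ± 1.5 and 78.5 ± 4.0 RPM (SD, n = 3), had a log2 fold change of 0.01. STK11 was at 51.7, 37.0 and 45.0 RPM in controls and 29.6, 39.8 and 36.5 in knockdowns, with a broad spread in both groups (-0.33 ± 0.12 SE; limma adjusted p = 0.052). The value was -0.46 without control replicate 2 (limma adjusted p = 0.0035) and -0.42 without knockdown replicate 2 (limma adjusted p = 0.029), but -0.22 without control replicate 1 (limma adjusted p = 0.179) and -0.21 without knockdown replicate 1 (limma adjusted p = 0.191). With the GC and length trend removed it was -0.15 (limma adjusted p = 0.022).

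**Figure D3:**
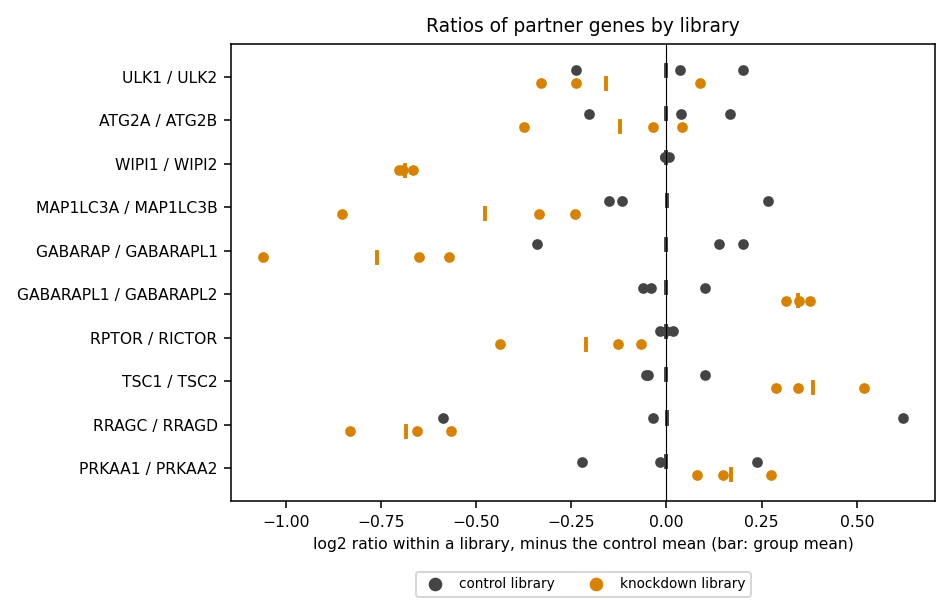
Log2 ratio of partner genes within each library, shifted so that the control mean is 0, for 10 pairs. Points are libraries and bars group means. The ratios of 6 pairs do not overlap between the groups. WIPI1 / WIPI2 shows a shift of -0.69 with little spread, and ULK1 / ULK2, ATG2A / ATG2B and PRKAA1 / PRKAA2 overlap.

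Partner genes were compared in 10 pairs in all, and in 6 the knockdown ratios lay wholly outside the control ratios. Each of the 6 gave p = 0.1 in the exact permutation test, and the adjusted value over the 10 pairs was 0.167, so none passed. The design cannot reach 0.05 in this test. For ULK1 and ULK2 the ratio differed by -0.16 (exact permutation p = 0.5).

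Spread between libraries was compared with GC content. In the 8 tested members whose longest transcript has at least 60% GC (ULK1, ATG2A, ATG4B, ATG4D, MAP1LC3A, MLST8, TSC2 and STK11), the coefficient of variation over control libraries had a median of 11.2%, against 3.46% in the other 42. The 2 highest values belonged to genes below 60% GC, GABARAP (19.9%) and PRKAA2 (17.2%). Control replicate 2 was the lowest control in 8 of these 8 genes and in 13 of the other 42. Knockdown replicate 1 was the lowest knockdown in 7 of the 8 and in 7 of the other 42. Of these 8 genes only MLST8 was called, beside 41.0% of all genes tested. After the trend over GC content and length had been removed in each library, 23 of 50 members (46.0%) were called instead of 16, 8 higher and 15 lower, beside 44.0% of all genes in the same fit.

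**Figure D4:**
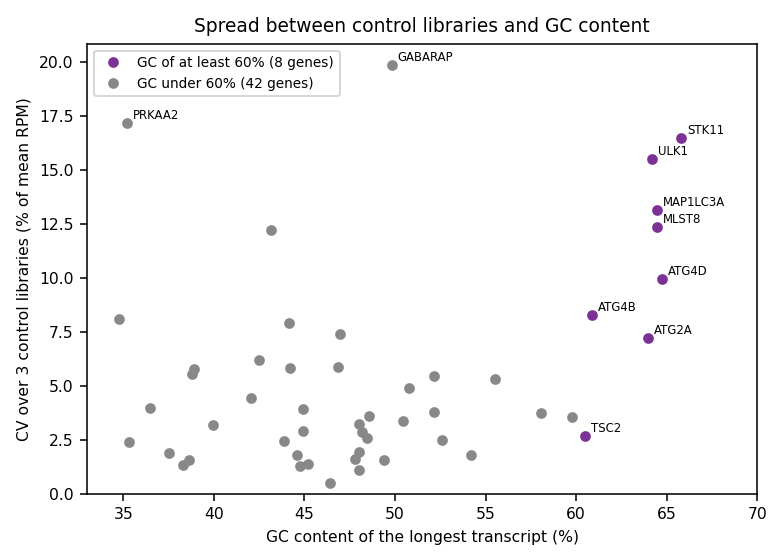
Coefficient of variation (CV) of RPM over the 3 control libraries against the GC content of the longest transcript, for the 50 tested members. Purple points are the 8 genes with at least 60% GC, with a median CV of 11.2%, and grey points the other 42, with a median of 3.46%. GABARAP and PRKAA2 are the grey points with the highest CV.

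The rest of the pathway was described from lists of 115 other genes, of which 113 were found and 104 tested. Of these, 64 (61.5%) were called, 27 higher and 37 lower, beside 41.0% of all genes tested. The share was 51.7% among genes with at least the mean read number of the least abundant tested member, a cut not applied to the listed genes. Their median log2 fold change was -0.02, beside -0.04 for all genes tested. The lists were chosen with earlier results of these data known. The shares of all genes given with the first list apply to the counts of every list that follows.

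Fusion of autophagosomes with lysosomes had 8 genes lower and 1 higher of 13 (all genes tested: 23.5% lower, 17.5% higher), with a median log2 fold change of -0.18. The largest fall was in EPG5, a tether for this fusion (-0.71; limma adjusted p = 5.3e-06), and the gene called higher was the SNARE protein STX17 (0.28; limma adjusted p = 0.026). Of 12 further cargo and mitophagy receptors, 7 fell and 2 rose, from TOLLIP (-0.75; limma adjusted p = 4.3e-06) to WDFY3 (0.28; limma adjusted p = 0.0028). Further genes of autophagosome formation had 4 higher and 1 lower of 13. TP53INP1, a p53 target that binds ATG8 proteins, went up from 66.02 ± 5.6 to 177.2 ± 7.5 RPM (SD, n = 3), by 1.43 on the log2 scale (limma adjusted p = 8.2e-08). RUBCN, an inhibitor of the lipid kinase complex, fell from 25.8 ± 0.5 to 14.4 ± 0.04 RPM (SD, n = 3), -0.84 (limma adjusted p = 1.9e-06).

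On the mTOR side, further subunits of the complexes had 1 higher and 1 lower of 7. PRR5L, a partner of mTORC2, rose from 3.99, 4.73 and 4.39 RPM to 9.68, 14.2 and 12.4 (log2 fold change 1.45 ± 0.13 SE; limma adjusted p = 1.3e-05), and TTI1 fell by 0.27 on the log2 scale (limma adjusted p = 0.011). Nutrient and stress sensors had 4 higher and 2 lower of 9, among them SESN1, a p53-induced inhibitor of mTORC1 signalling (0.62; limma adjusted p = 8.5e-05), and DDIT4L (-0.54; limma adjusted p = 0.0072). Of 21 genes of Ragulator, GATOR, KICSTOR and folliculin, which relay amino acid signals at the lysosome, 5 rose and 6 fell, between KICS2 (-0.40) and FNIP1 (0.30). Substrates of mTORC1 had 3 higher and 5 lower of 11, between TFEB (-0.39; limma adjusted p = 0.019) and its relative MITF (0.27; limma adjusted p = 0.0093).

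AMPK subunits and partners other than the members had 4 higher and 1 lower of 7. The beta subunit PRKAB2 rose from a mean of 35.17 RPM to 50.15 (log2 fold change 0.51, limma adjusted p = 3.0e-05). The gamma subunit PRKAG2 rose by 0.24 on the log2 scale (limma adjusted p = 0.033), and PRKAG3 had no read. CAB39L, of the family of LKB1 scaffolds, rose by 0.59 and STRADB fell by 0.28 on the log2 scale (limma adjusted p = 9.9e-06 and 0.040). PI3K and AKT input genes had 3 higher and 6 lower of 11. INPP4B, a lipid phosphatase of that pathway, was lower (-0.65; limma adjusted p = 0.00020).

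**Figure D5:**
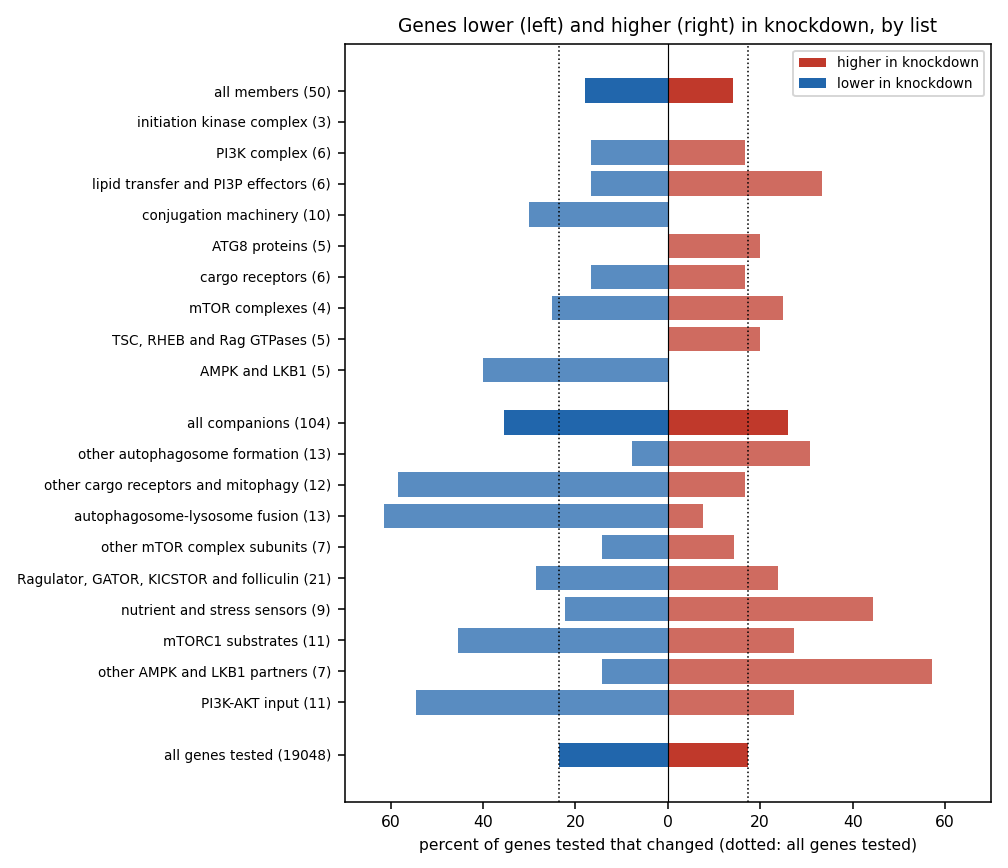
Percent of tested genes called lower (blue, left) and higher (red, right) in the knockdown for each role among the members, for each companion list, and for all genes tested, with the number tested in brackets. Dotted lines mark all genes tested (23.5% lower, 17.5% higher). The bar of all members is shorter than the bar of all genes on both sides, and the list of autophagosome-lysosome fusion reaches farthest to the left.

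Reads of neighbouring genes limit some values, since the strand setting of the counting is not given in the sources used here. Another tested gene overlaps the span of 26 of the 51 members. In 5 members such a gene lies on the same strand, among them the called ATG14 and WIPI1. In AMBRA1 and PRKAG1, also among the 5, that gene had more reads than the member. Of the 16 called members, 6 had no overlap with a tested gene (DRAM1, ATG16L1, GABARAPL1, TSC1, PRKAA1 and PRKAA2). Genes too low to be tested overlap DRAM1, ATG16L1 and PRKAA1 on their own strand. The other 10 overlapped a tested gene, among them WIPI1 (with ARSG), SQSTM1 (with MGAT4B), ATG3 (with SLC35A5), ATG7 (with VGLL4) and MLST8 (with BRICD5). BECN1 overlaps PSME3 and CNTD1, of which the larger had more reads than BECN1.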

How the data were processed

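RNA of 6 libraries was sequenced after polyA selection as single 50 bp reads, per the labels' protocols. The submitters' processing notes name Bowtie2, featureCounts and hg19, without versions. The authors deposited a table of 57819 genes holding log2 normalized counts with an offset of 0.5 reads; this was worked out from the values, since undoing the offset gave whole reads (within 1e-06) for 100% of them. The ending of the knockdown column names is not explained. RPM are recovered reads per 1000000 of the effective library size.

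The log2 values were fitted with limma 3.58.1 (R 4.3.3; lmFit, eBayes with trend, group as the sole term, two-sided), Benjamini-Hochberg adjusted over 19048 genes, and 20 other fits were run. Pair ratios used exact permutation tests (scipy 1.17.1). The fit was also run on simulated data with few changed genes and a common dispersion, so that run does not give the error rate here. By rule the text names the 12 members with the largest called changes (mean of at least 50 reads, groups apart), the 10 pairs, and the largest called rise and fall of each companion list (1 such gene is not reported here); other genes given by library, and the promoter words, were chosen after values were seen. RB1CC1, ATG101, PRKAB2, PRKAG2, PRKAG3 and MAP1LC3B2 were also named after values were seen. The members and lists were chosen with earlier results of these data known. Replicate numbers did not pair libraries (correlations -0.149, -0.183 and 0.065). Replicates differed by more than sampling noise (chi-square per degree of freedom 2.87 to 11.0). A gene with no read could lie below 3 reads, or 0.0596 to 0.134 RPM, for counting error only.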

Additional observations from a re-analysis of the deposited data

How the results depend on the processing

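Of the 16 members called, 10 kept call and direction in all 20 other fits (DRAM1, WIPI1, MLST8, SQSTM1, GABARAPL1, TSC1, ATG3, ATG7, RICTOR and PRKAA1), 6 lost the call in at least 1 (BECN1, ATG14, VMP1, BNIP3L, PRKAA2 and ATG16L1) and 0 changed sign. Of the others, 14 were called in at least 1 fit. Leaving out 1 library gave 11 to 16 members called (4 to 6 higher, 7 to 10 lower), 45 to 64 companion genes and 5803 to 7330 genes in all; the 4 higher came when control replicate 2 or 3, or knockdown replicate 3, was dropped. Without the trend in eBayes 4 members were higher, and with the GC and length trend removed 15 were lower; the cause was not tested. With the replicate number as a block, 12 members, 49 companion genes and 6454 genes in all were called; BECN1, ATG14, VMP1 and PRKAA2 were not.

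Among members not called as reported, those whose value changed sign were ULK2 (0.0139), PIK3C3 (-0.0169) and PRKAG1 (-0.0031) after thinning to equal depth; AMBRA1 (0.0090), ATG12 (-0.0562), OPTN (-0.022), TSC2 (0.0229) and RRAGA (0.0558) with the GC and length trend removed, where PIK3C3 also turned and was called lower (-0.133; limma adjusted p = 0.0375); AMBRA1 (0.0050), ATG2B (0.0088) and NBR1 (0.0048) with library totals. With median-of-ratios scaling they were AMBRA1 (0.0132), ATG2B (0.017), NBR1 (0.013) and RRAGA (0.0046), and with quantile normalization AMBRA1 (0.0273) and ATG2B (0.0183). With 1 library dropped, PIK3C3 ran from -0.0145 to 0.0199, AMBRA1 from -0.0511 to 0.0254, ATG2B from -0.068 to 0.0392, ATG4B from -0.0272 to 0.108, ATG4D from -0.0436 to 0.192, ATG12 from -0.0135 to 0.0589, NBR1 from -0.0423 to 0.0134, OPTN from -0.0116 to 0.0442, RHEB from -0.0111 to 0.084, PRKAG1 from -0.0349 to 0.0353, and the difference in the ratio of ATG2A to ATG2B from -0.225 to 0.0024. The median of the members was 0.02 under quantile normalization.

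Depth limits RRAGD, at 4 to 12 reads per library; without a filter its log2 fold change was 0.72 (limma adjusted p = 0.268).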
